A study of Mus musculus with 3 samples.

Results

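The TCR beta repertoire of double-negative (DN) T cells was read from 1 library, made from the mRNA of 1000000 cells that had been sorted by flow cytometry from the spleen of a 16-week-old MRL.lpr mouse. Every clonotype of the DN table whose best V gene was a TRBV gene and whose best J gene was a TRBJ gene was taken as a member, with the allele number removed from the gene names. This gave 41948 clonotypes with 194290 reads, out of 168230 clonotypes in the 3 tables of the series. CD8 T cells (81212 TCR beta clonotypes, 150874 reads) and CD4 T cells (44807 clonotypes, 133667 reads) from the same spleen, also 1000000 cells and 1 library each, served as the reference. All 3 subsets came from the same mouse, of a strain that carries the lpr mutation of Fas and develops lupus-like disease, and no other strain, age or mouse was compared. A clonotype is a distinct CDR3 nucleotide sequence, and its size is its count of sequencing reads.

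A TCR beta chain is made by joining a V, a D and a J gene, with bases trimmed from and added to the gene ends at each joint. The joint lies in the CDR3, the loop that meets the peptide on the MHC molecule, while the ends of the loop are fixed by the V and J genes. In lpr mice, mature αβ T cells without CD4 and CD8 accumulate in lymphoid organs with age.

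The kit amplifies TCR alpha and beta chains, so the chains listed are no check of the label. Apart from the TCR beta clonotypes, the DN table held 78 TCR alpha clonotypes with 85 reads and no TCR gamma, TCR delta or immunoglobulin gene. A single clonotype with 1 read joined TRAV11 to TRAJ18, the pair that marks invariant NKT cells, and none joined TRAV1 to TRAJ33, the pair of MAIT cells, but 73 of the 78 alpha clonotypes had a single read, too few to measure such cells. The loss of CD4 and CD8 cannot be read from these sequences. Since each subset had 1 library, the tests below compare libraries and not conditions, and they treat clonotypes as independent. Intervals are 95% Wilson intervals for counting error alone, as reads copied by PCR are not independent molecules. A count of 0 allows a share of up to 0.00154% of TCR beta reads in DN, 0.00199% in CD8 and 0.00224% in CD4 T cells (3 reads).

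Many clonotypes were listed in more than 1 table, which touches every comparison below. Of the DN clonotypes, 18.5% (7772) were also found in the CD8 library and 8.95% (3754) in the CD4 library, with the same CDR3 nucleotides, V gene and J gene. All 215 DN clonotypes with at least 100 reads were found in the CD8 library, where their median read count was 14.4% of that in DN T cells (quartiles 11.0 and 16.8%). Of these 215, 205 were found in the CD4 library, where the median was 3% (quartiles 1.85 and 4.34%). Members of a clone in more than 1 subset and DN material in the other libraries cannot be told apart here. The remaining 32359 DN clonotypes (77.1%), found in neither other library, held 30.1% of DN reads and at most 66 reads each, and each share tested below by Fisher's exact test was also computed on clonotypes found in a single library.

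The 10 largest DN clonotypes show what the receptors look like. Capitals mark the joint, that is the bases that match neither the common V gene end nor the common J gene end of the 3 libraries. A common end may include bases that the gene does not encode, so a joint can be longer than marked.
TRBV13-1/TRBJ2-4, 1374 reads: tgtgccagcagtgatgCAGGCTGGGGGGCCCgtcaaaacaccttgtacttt
TRBV4/TRBJ2-3, 1339 reads: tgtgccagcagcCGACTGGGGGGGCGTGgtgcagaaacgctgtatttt
TRBV1/TRBJ2-7, 1299 reads: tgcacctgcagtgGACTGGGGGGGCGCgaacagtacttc
TRBV31/TRBJ2-1, 1269 reads: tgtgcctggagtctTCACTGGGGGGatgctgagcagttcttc
TRBV13-1/TRBJ2-1, 1212 reads: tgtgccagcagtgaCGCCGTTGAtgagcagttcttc
TRBV1/TRBJ2-1, 1142 reads: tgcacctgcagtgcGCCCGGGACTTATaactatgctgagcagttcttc
TRBV13-3/TRBJ2-1, 836 reads: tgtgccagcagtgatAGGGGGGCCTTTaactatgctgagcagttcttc
TRBV1/TRBJ2-7, 735 reads: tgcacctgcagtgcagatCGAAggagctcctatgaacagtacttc
TRBV13-1/TRBJ2-7, 647 reads: tgtgccagcagtgatgatgaacagtacttc
TRBV1/TRBJ2-1, 592 reads: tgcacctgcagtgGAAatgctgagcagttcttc

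All 10 used a TRBJ2 gene, 5 of them TRBJ2-1, and 4 used TRBV1 and 3 TRBV13-1. TRBD2 was assigned to 5, TRBD1 to 1 and no D gene to 4. Their CDR3s ran from 10 to 17 residues and their joints from 0 to 16 bases. The TRBV13-1/TRBJ2-7 clonotype with 647 reads had no base outside the common V and J ends. The largest clonotype held 0.707% of DN reads (0.671 to 0.745%) and 3.46% of the reads of its V gene. The TRBV4 clonotype held 0.689% of DN reads and 18.8% of the reads of TRBV4, so reads of that gene leaned on a single clonotype. All 10 were present in CD8 T cells, with 100 to 225 reads, and in CD4 T cells, with 15 to 68 reads. None of the 10 had a smaller clonotype that differed from it by 1 base at equal V gene, J gene and length and with at most 1 read per 10 of its own.

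The TRBV13 family led the DN repertoire, by clonotypes as well as by reads. TRBV13-1 (Vβ8.3 in the older naming) held 18.4% of DN clonotypes (18.0 to 18.7%) and 20.4% of reads. It held 9.17% of clonotypes in CD8 (8.97 to 9.37%) and 12.4% in CD4 T cells (12.1 to 12.8%), ratios of 2.002 and 1.48. TRBV13-2 (Vβ8.2) held 12.5% of DN clonotypes, against 10.2% in CD8 and 12.6% in CD4 T cells. TRBV13-3 (Vβ8.1) held 9.84%, lower than the 14.5% of CD8 and higher than the 5.41% of CD4 T cells. Together the 3 genes made up 40.7% of DN clonotypes, 33.9% in CD8 (Fisher's exact test, adjusted p = 3.72e-121) and 30.5% in CD4 T cells (Fisher's exact test, adjusted p = 1.67e-217).

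Of the other genes with at least 1% of DN reads or clonotypes, TRBV17 was higher than in either library, with 8.93% of DN clonotypes (8.66 to 9.21%), 6.36% in CD8 and 3.21% in CD4 T cells. TRBV1 was level with CD8 T cells, and TRBV14 lay between the libraries. TRBV1 held 11.5% of clonotypes in DN, 11.3% in CD8 and 6.52% in CD4 T cells, and TRBV14 held 2.64%, 6.42% and 1.35%. TRBV29 followed the same order, with 2.33%, 3.003% and 1.61%. RefSeq lists TRBV29 as a pseudogene, yet 96.7% of its 979 DN clonotypes were in frame without a stop codon.

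Several genes that were common in CD4 T cells were rare in DN T cells. TRBV20 held 1.75% of DN clonotypes against 9.31% in CD4 T cells, a ratio of 0.188, and 2.89% in CD8 T cells. TRBV26 held 1.72% and TRBV2 1.52% of DN clonotypes, 0.360 and 0.367 times their shares in CD4 T cells. TRBV5 (6.89%) and TRBV4 (4.36%) held 0.644 and 0.522 times their shares in CD4 T cells, and 1.32 and 1.11 times those in CD8 T cells. TRBV31 held 7.75% of DN clonotypes, lower than the 11.6% of CD8 and the 8.97% of CD4 T cells. TRBV19 held 7.27%, lower than the 8.74% of CD8 and close to the 7.36% of CD4 T cells, whose intervals overlapped with it. The other 15 V genes listed in DN T cells held 2.02% of reads together.

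Read against all V genes with at least 10 clonotypes in both libraries, a ratio of 1.5 or more upward was found for 4 of 24 V genes against CD8 T cells (16.7%) and for 4 of 24 against CD4 T cells (16.7%). A ratio of 1.5 or more downward was found for 5 of 24 against CD8 (20.8%) and for 7 of 24 against CD4 T cells (29.2%). Those higher against CD8 T cells were TRBV13-1 and the rare TRBV15, TRBV24 and TRBV22. Few clonotypes of these rare genes were in frame without a stop codon. In DN T cells these were 31 of 159 for TRBV15, 20 of 174 for TRBV24 and 7 of 29 for TRBV22. In CD8 T cells they were 72 of 188, 24 of 154 and 5 of 26. The ratios count all clonotypes and so do not measure use of these genes in receptors. Those higher against CD4 T cells were TRBV1, TRBV13-3, TRBV17 and TRBV14. The effective number of V genes, the inverse Simpson index of their clonotype shares, was 9.97 in DN, 11.3 in CD8 and 11.8 in CD4 T cells.

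**Figure D1:**
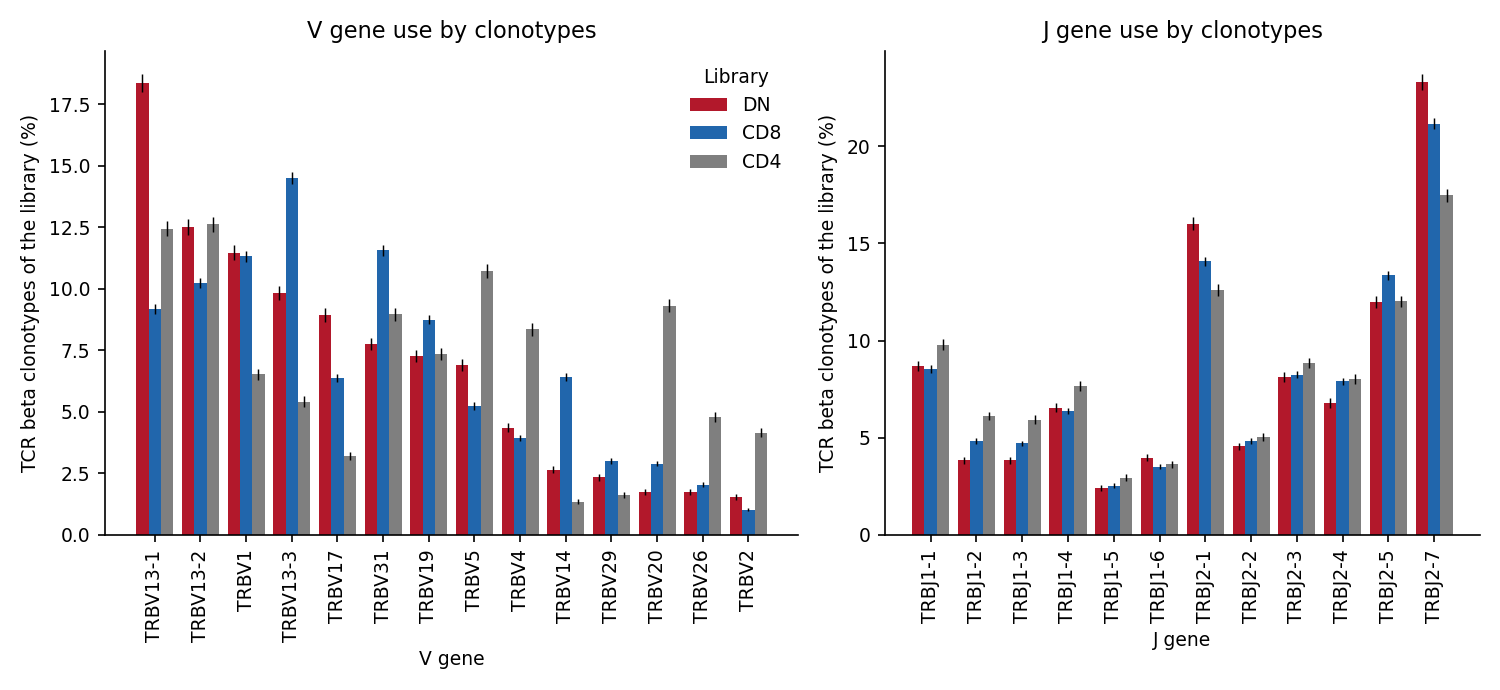
Share of TCR beta clonotypes (%, y axis) by V gene (left, the 14 genes with at least 1% of DN reads or clonotypes) and J gene (right) in the DN, CD8 and CD4 libraries. Bars are single libraries with 95% Wilson intervals. TRBV13-1 stands at 18.4% in DN against 9.17% and 12.4%, and TRBJ2-7 at 23.3% against 21.2% and 17.5%.

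V genes also differed in how many reads a DN clonotype held. A DN clonotype had 4.63 reads on average, against 1.86 in CD8 and 2.98 in CD4 T cells. Among the 14 genes above, the mean was highest for TRBV31 (5.60 reads) and TRBV13-3 (5.53 reads). It was lowest for TRBV20 (3.05 reads) and TRBV2 (3.11 reads), 2 of the genes that were rarer in DN than in CD4 T cells. TRBV17 clonotypes were many but small, with 3.93 reads each, so the gene held 8.93% of clonotypes and 7.58% of reads. The largest TRBV17 clonotype had 392 reads. TRBV19, TRBV20, TRBV26, TRBV2 and TRBV29 had lower maxima, of 242 to 352 reads.

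The V genes separated by how many of their DN clonotypes could encode a receptor chain. A clonotype was called productive when its CDR3 was in frame and without a stop codon, and 91.0% of DN clonotypes (38188) were. Of 21 V genes with at least 50 DN clonotypes, 11 had at least 90% productive clonotypes, TRBV17 (96.1%), TRBV13-1 (7318 of 7703) and TRBV1 (94.9%) among them. In 4 genes less than 50% were productive. These were TRBV24 (Vβ17, 20 of 174), TRBV12-1 (Vβ5.2, 13 of 77), TRBV15 (Vβ12, 31 of 159) and TRBV12-2 (Vβ5.1, 19 of 68).

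Several V genes had a lower productive share in DN than in CD8 T cells, the Vβ5 and Vβ11 genes among them. In CD8 T cells 71.5% of TRBV12-1, 85.4% of TRBV12-2 and 86.1% of TRBV16 (Vβ11) clonotypes were productive. In DN T cells these shares were 16.9% (10.1 to 26.8%), 27.9% (18.7 to 39.6%) and 51.9% (44.1 to 59.6%). In CD4 T cells TRBV12-1 (22.2%) and TRBV16 (28.3%) were also low, while TRBV12-2 was at 75.9%. For TRBV24 the shares were low in all 3 libraries, with 11.5% in DN, 15.6% in CD8 and 18.0% in CD4 T cells. These shares were looked at only after the values were seen and were not tested.

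Nonproductive clonotypes made up 8.96% of DN clonotypes, 4.89% in CD8 (Fisher's exact test, adjusted p = 3.18e-163) and 7.82% in CD4 T cells (Fisher's exact test, adjusted p = 1.74e-09). Of the 3760 in DN T cells, 3528 were out of frame and 232 had a stop codon. The largest, with 323 reads, held only the last 16 bases of the common TRBJ2-1 end. Rearrangements that encode no chain were not told apart from copying errors or incomplete sequences. By reads the share was 4.71% in DN and 5.18% in CD4 T cells, the opposite order. Productive DN clonotypes were larger, since 88.7% of clonotypes with 1 read and 96.9% of those with 10 to 99 reads were productive. The TRBV13 family held 25.8% of nonproductive DN clonotypes, against 42.2% of productive ones. The ratio of its DN share to the reference was 1.11 for CD8 and 1.196 for CD4 T cells among nonproductive clonotypes, and 1.22 and 1.35 among productive ones. The difference between these ratios was not tested.

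The cluster of TRBJ2 genes lies after TRBD2 in the locus. It held 70.8% of DN clonotypes, 69.6% in CD8 (ratio 1.02, Fisher's exact test, adjusted p = 2.11e-05) and 64.0% in CD4 T cells (ratio 1.11, Fisher's exact test, adjusted p = 8.64e-101). The small excess over CD8 T cells was not seen among clonotypes with at least 2 reads (71.6 and 71.2%, Fisher's exact test, adjusted p = 0.427). Among nonproductive clonotypes TRBJ2 held 71.5% in DN and 74.9% in CD8 T cells, the opposite order (Fisher's exact test, adjusted p = 0.00139), and 70.1% in CD4 T cells (Fisher's exact test, adjusted p = 0.226). By reads the TRBJ2 share of DN T cells was larger, 75.02% against 70.1 and 67.4%.

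Within the cluster, TRBJ2-7 and TRBJ2-1 carried the difference. TRBJ2-7 held 23.3% of DN clonotypes (22.9 to 23.7%), 21.2% in CD8 and 17.5% in CD4 T cells. TRBJ2-1 held 16.0% of DN clonotypes, 14.1% in CD8 and 12.6% in CD4 T cells, and its DN clonotypes were the largest of any J gene, with 5.68 reads each, which brought it to 19.6% of reads. TRBJ2-4 (6.77%) was lower than in either reference (7.90 and 8.03%), and TRBJ2-5 (11.97%) was lower than in CD8 T cells (13.4%). TRBJ2-3 held 8.12%, 8.24% and 8.82% in DN, CD8 and CD4 T cells, and TRBJ2-2 held 4.54%, 4.83% and 5.03%.

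In the TRBJ1 cluster, TRBJ1-2 (3.83%) and TRBJ1-3 (3.82%) were the genes that DN T cells used less. Their shares were 4.81 and 4.70% in CD8 and 6.11 and 5.93% in CD4 T cells. TRBJ1-6 went the other way, with 3.96% against 3.50 and 3.62%. TRBJ1-1 (8.68%), TRBJ1-4 (6.55%) and TRBJ1-5 (2.40%) were at 1.02, 1.03 and 0.949 times their CD8 shares and below their CD4 shares. The 2 genes TRBJ1-2 and TRBJ1-3 against CD4 T cells were the only ones of 12 J genes past 1.5-fold downward (16.7%). No J gene passed 1.5-fold downward against CD8 T cells (0%), and none passed it upward against CD8 (0%) or CD4 T cells (0%).

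TRBD2 was used more in DN T cells. A D gene was assigned to 81.2% of TRBJ2 clonotypes, and TRBD2 made up 66.4% of these assignments (65.8 to 66.9%). The share was 57.3% in CD8 (Fisher's exact test, adjusted p = 1.21e-118) and 55.3% in CD4 T cells (Fisher's exact test, adjusted p = 1.86e-130). Among nonproductive TRBJ2 clonotypes it was 68.1% in DN, 69.3% in CD8 and 63.1% in CD4 T cells, so the order of DN and CD8 T cells was reversed there (ratio 0.982, Fisher's exact test, adjusted p = 0.380). How the ratio differed between productive and nonproductive clonotypes was not tested. TRBD2 lies after the TRBJ1 genes, so a TRBD2 call beside a TRBJ1 gene measures wrong calls. Such calls made up 9.59% of D assignments with TRBJ1 in DN, 8.0005% in CD8 and 8.39% in CD4 T cells.

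Among V-J pairs, TRBV13-1 with TRBJ2-7 came first by reads and by clonotypes. It held 4.84% of DN clonotypes (2032) and 5.62% of reads, where the CD8 and CD4 libraries had 2.13 and 2.18% of clonotypes. TRBV13-1/TRBJ2-1 followed by reads, with 3.65% of reads and 2.82% of clonotypes, and its largest clonotype held 17.1% of the pair's reads. TRBV13-2/TRBJ2-7 held 2.89%, TRBV17/TRBJ2-7 2.41% and TRBV1/TRBJ2-7 2.41% of DN clonotypes. For TRBV17/TRBJ2-7 the ratio to CD4 T cells was 3.51 and that to CD8 T cells 1.47. TRBV13-3/TRBJ2-1 had the fifth most reads (2.47%), of which its largest clonotype held 17.4%.

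Pairs that differed from the references gathered by V gene. Against CD8 T cells, TRBV13-1 was at least 1.5-fold higher with each of 12 J genes (ratios 1.52 to 2.38), and TRBV14 was at least 1.5-fold lower with each of 12 (0.231 to 0.548). Against CD4 T cells, TRBV20 was lower with each of 11 J genes compared, and TRBV2 and TRBV26 with each of 12. Over all pairs with at least 10 clonotypes in both libraries, 34 of 205 were higher (16.6%) and 48 lower (23.4%) against CD8 T cells. Against CD4 T cells 52 of 201 were higher (25.9%) and 70 lower (34.8%).

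Most pairs occurred about as often as the shares of their genes would give. Of 110 pairs with at least 100 clonotypes expected from the product of the V and J shares, 92 lay between 0.8 and 1.25 times the expected number. The highest were TRBV14/TRBJ2-5 (231 clonotypes, 1.74 times), TRBV19/TRBJ1-6 (175, 1.45 times) and TRBV1/TRBJ1-5 (162, 1.40 times). The lowest were TRBV17/TRBJ1-6 (39 clonotypes, 0.263 times), TRBV4/TRBJ1-1 (91, 0.574 times) and TRBV5/TRBJ1-2 (71, 0.641 times). TRBV17/TRBJ1-6 was also low in CD8 (0.387 times) and CD4 T cells (0.615 times), and TRBV14/TRBJ2-5 was high in both (1.40 and 2.08 times).

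**Figure D2:**
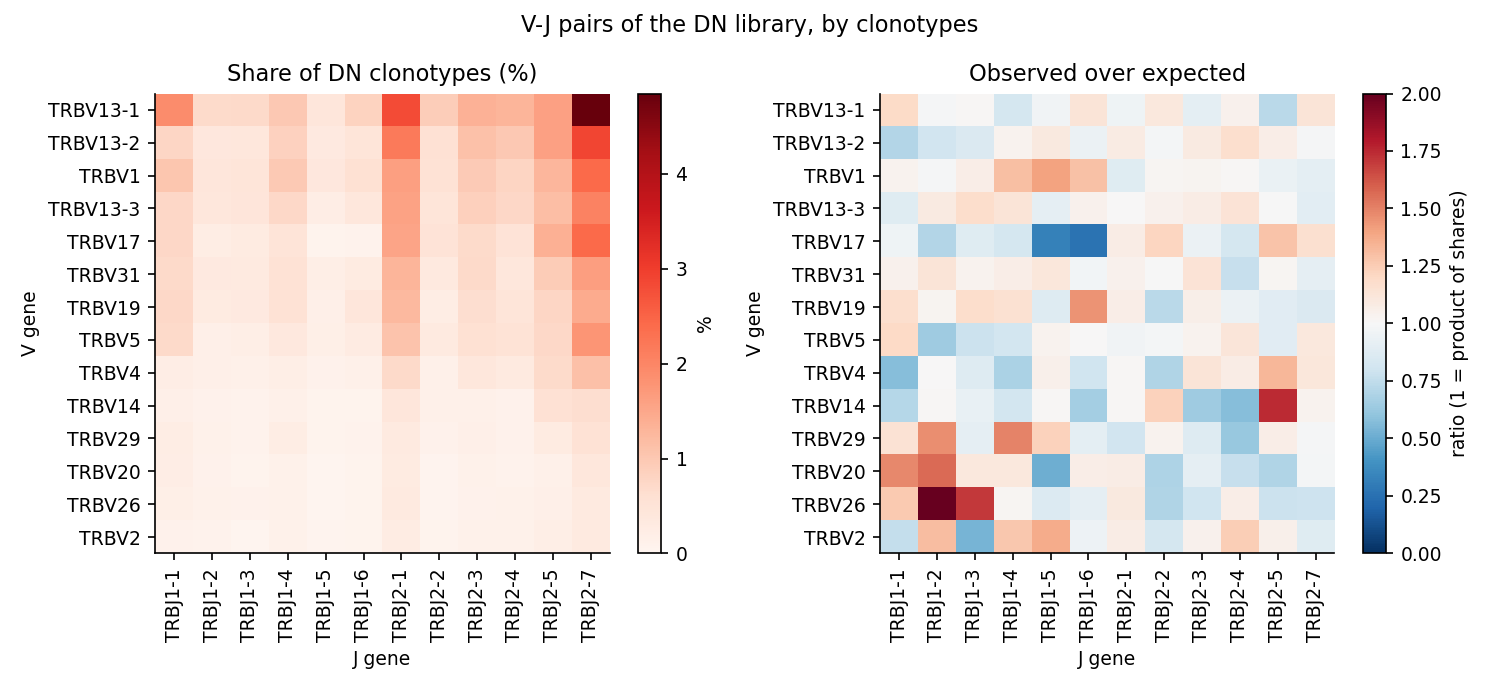
V genes (rows, those with at least 1% of DN reads or clonotypes) against J genes (columns) in the DN library, as share of clonotypes (left, %) and as clonotypes observed over those expected from the product of the gene shares (right, ratio). The TRBV13-1/TRBJ2-7 cell is the darkest at 4.84%, and TRBV17/TRBJ1-6 at 0.263 is the lowest of the 110 pairs with at least 100 clonotypes expected.

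DN CDR3s were longer. Their mean length was 14.2 residues (SD 1.51 over 38188 productive clonotypes), against 13.9 in CD8 (SD 1.52) and 13.9 in CD4 T cells (SD 1.49). The difference was 0.297 residues from CD8 (0.279 to 0.316) and 0.297 from CD4 T cells (0.276 to 0.318). CDR3s of at most 12 residues made up 12.2% of DN clonotypes, 16.1% in CD8 (Fisher's exact test, adjusted p = 2.23e-70) and 15.8% in CD4 T cells (Fisher's exact test, adjusted p = 3.09e-47). CDR3s of at least 16 residues made up 18.0%, 13.2% (Fisher's exact test, adjusted p = 4.34e-102) and 12.04% (Fisher's exact test, adjusted p = 4.32e-122).

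The length difference ran through the V and J genes. The DN mean was longer in 16 of 16 V genes with at least 100 productive clonotypes in each library against CD8 T cells, and in 13 of 16 against CD4 T cells. The exceptions were TRBV20, TRBV3 and TRBV30. It was longer with each of 12 J genes, by 0.0897 to 0.432 residues against CD8 and by 0.0429 to 0.484 against CD4 T cells. The joint, as marked in capitals above, averaged 11.0 bases in DN (SD 4.56), 10.2 in CD8 (SD 4.34) and 10.4 in CD4 T cells (SD 4.49). The common V end was shortened by 2.33, 2.16 and 2.27 bases and the common J end by 4.78, 4.59 and 4.43 bases in DN, CD8 and CD4 T cells. These ends were taken from the libraries themselves and may include bases that the genes do not encode. That of TRBJ2-7, the J gene that DN T cells used most, was the longest J end, with 26 bases. The joint lengths and the shortening therefore depend on J gene use and do not measure trimming of the genes alone.

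Residues were counted with the first 4 and last 4 left out. Some gene-encoded residues remain in this interior, such as the aspartate at the end of TRBV13-1, TRBV13-3 and TRBV1 and the asparagine and tyrosine at the start of TRBJ2-1. Other examples are the glutamine near the end of TRBV2 and TRBV5 and the tyrosine of TRBJ2-7. Tryptophan made up 4.68% of interior residues in DN, 2.69% in CD8 and 2.12% in CD4 T cells, ratios of 1.74 and 2.20. By reads it made up 5.13, 2.97 and 2.36%. It was present in the interior of 27.8% of productive DN clonotypes (27.4 to 28.3%), 15.5% in CD8 (15.2 to 15.7%) and 12.3% in CD4 T cells (11.97 to 12.6%). Both differences passed Fisher's exact test with an adjusted p of 5.2e-300, from p-values set no lower than 1e-300. The tryptophan comparisons were chosen after the residue values were seen.

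Among the other residues, aspartate (11.7% of interior residues), tyrosine (6.03%) and phenylalanine (0.976%) were higher than in CD4 T cells by 1.22, 1.35 and 1.36 times, and 1.11, 1.19 and 1.06 times CD8 T cells. Threonine (5.10%) was lower, at 0.824 and 0.805 times CD8 and CD4 T cells, and glutamine (4.88%) at 0.858 and 0.684 times. Lysine (0.518%) was at 0.911 and 0.790 times. Cysteine was rare, at 0.0223% of interior residues, 1.55 and 1.48 times its share in CD8 and CD4 T cells by clonotypes and 1.89 and 4.75 times by reads. Of the most frequent residues, glycine (20.6%), alanine (9.20%), asparagine (6.99%) and arginine (6.80%) stayed within 1.2-fold of both references.

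An aromatic interior residue (F, W or Y) was present in 54.4% of productive DN clonotypes, 41.7% in CD8 and 36.1% in CD4 T cells, each with an adjusted p of 5.2e-300 by Fisher's exact test. A charged one (D, E, K or R) was present in 80.4, 74.8 and 74.8% (Fisher's exact test, adjusted p = 5.86e-99 and 2.79e-78). The interior carried a net negative charge in 51.5% of DN clonotypes, 48.5% in CD8 and 46.0% in CD4 T cells. The part of V and J gene use in the aspartate, tyrosine, glutamine and other residue differences apart from tryptophan was not tested. Nor was its part in the aromatic and charge differences.

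The tryptophan excess was spread over genes and lengths. In DN T cells the share of clonotypes with interior tryptophan ran from 16.2% (TRBV29) to 41.5% (TRBV4) over 16 V genes, and it was higher than in CD8 and in CD4 T cells for each of them. The same held for each of 12 J genes. With TRBJ2 genes the DN share ran from 28.7 to 37.9%, and with TRBJ1 genes from 5.96 to 7.98%. By CDR3 length it rose from 2.86% at 10 residues to 27.1% at 14 and 46.7% at 17 residues, above both references at each of 9 lengths from 10 to 18 residues. The excess was also present in each D class. With TRBD2 interior tryptophan was present in 56.0% of DN, 37.8% of CD8 and 32.8% of CD4 clonotypes. With TRBD1 the shares were 8.54, 4.73 and 3.56%, and with no D gene assigned 10.5, 5.38 and 4.71%. When the CD8 shares were weighted by the V, J, D and length make-up of the DN clonotypes, they came to 19.3% against 27.9%. The CD4 shares came to 16.7% against 28.1%. Weighting thus narrowed the gap to each reference without closing it.

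**Figure D3:**
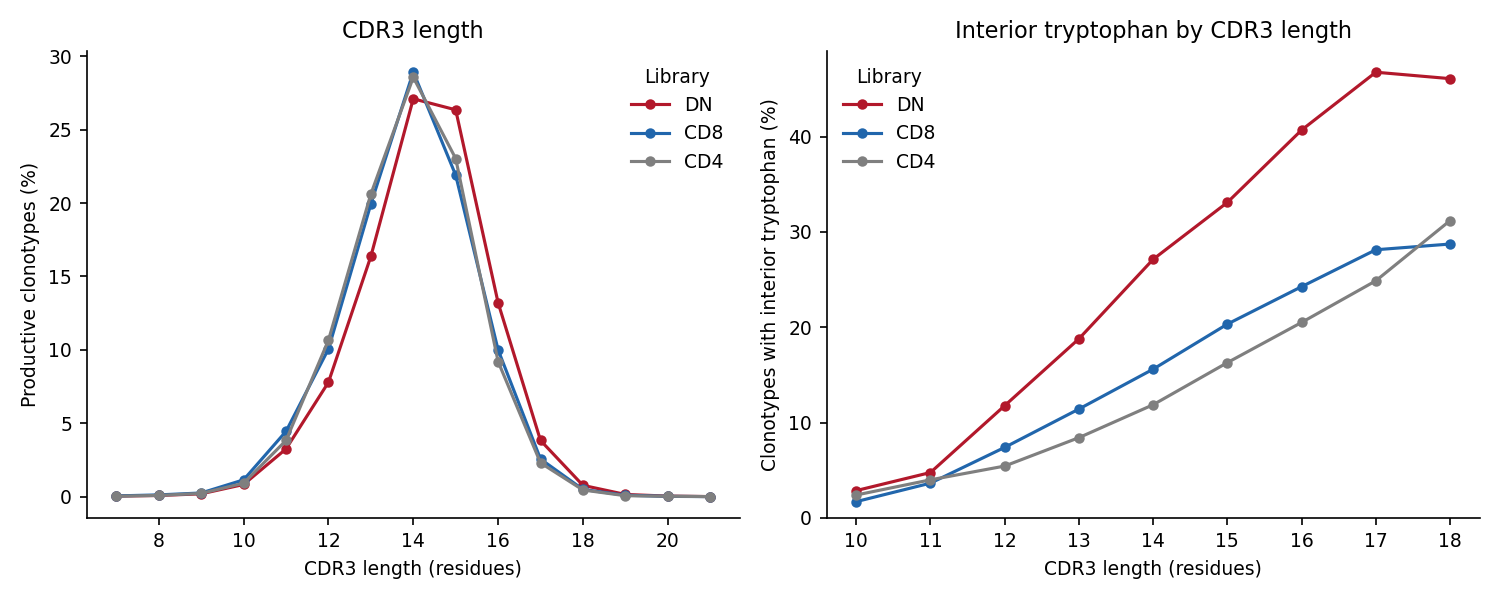
CDR3 length in residues (x axes) of productive clonotypes in the 3 libraries, as share of clonotypes (left, %) and as share with an interior tryptophan at each length with at least 100 clonotypes per library (right, %). The DN curve is shifted to longer CDR3s, and its tryptophan share reaches 46.7% at 17 residues against 28.1% in CD8 and 24.9% in CD4 T cells.

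The tryptophan came mostly with TRBD2 in each library. Of clonotypes with interior tryptophan, 79.9% had TRBD2 in DN, 78.2% in CD8 and 76.9% in CD4 T cells. Of the tryptophans, 72.1, 71.5 and 70.4% were followed by glycine, and 55.1, 53.0 and 49.1% were preceded by aspartate. The 7 bases ACTGGGG of TRBD2 occurred in 55.2% of DN clonotypes called TRBD2, 0.863% of those called TRBD1 and 1.94% of those without a D gene, and in 22.8% of all DN clonotypes. Of clonotypes with interior tryptophan, 52.6% held these 7 bases in DN, 51.1% in CD8 and 47.2% in CD4 T cells. These 7 bases can be read in 3 frames, giving tryptophan-glycine, leucine-glycine or threonine-glycine.

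In DN T cells the run was read in the tryptophan frame in 62.7% of 8703 productive clonotypes that held it (61.7 to 63.7%). In CD8 T cells this share was 44.3% (43.4 to 45.1%, Fisher's exact test, adjusted p = 2.27e-158), and in CD4 T cells 38.8% (37.6 to 40.1%, Fisher's exact test, adjusted p = 1.68e-178). The threonine frame held 15.0% in DN, 26.5% in CD8 and 31.2% in CD4 T cells. The leucine frame held 22.3, 29.2 and 30.0%. The frame comparison, too, was chosen after the values were seen.

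The frame was also compared by clonotype size. The tryptophan frame held 61.2% of DN clonotypes with 1 read and 65.7% of those with at least 10 reads. In CD8 T cells it held 42.4% and 65.3%, and 61.2% of CD8 clonotypes with 10 to 99 reads were also DN clonotypes. In CD4 T cells it held 38.8% and 35.4%. Among clonotypes found in a single library the tryptophan frame held 62.5% in DN, 41.0% in CD8 and 34.4% in CD4 T cells, and interior tryptophan was present in 27.8, 14.1 and 10.9%. Both gaps were thus wider without shared clonotypes.

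**Figure D4:**
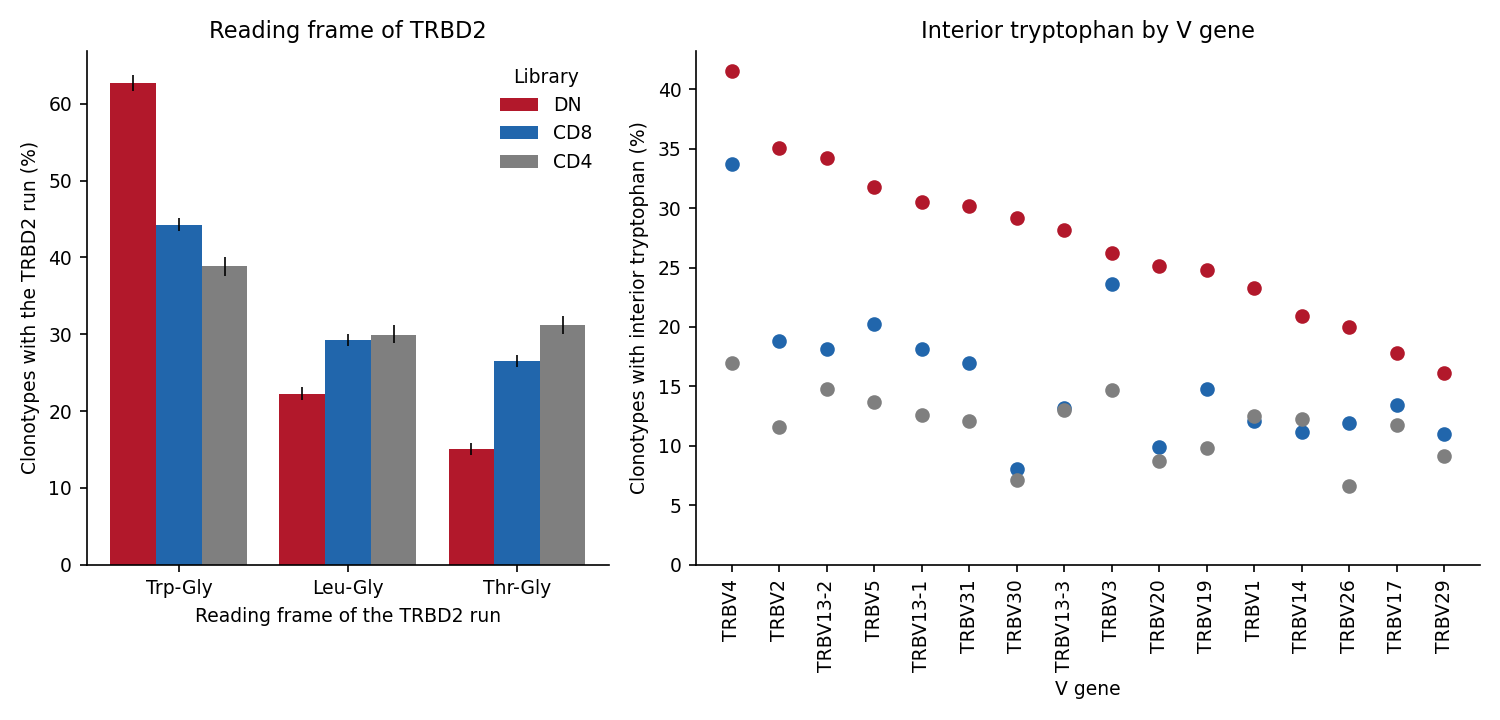
Left, reading frame of the TRBD2 run in productive clonotypes that hold it (%, y axis, bars with 95% Wilson intervals) in the 3 libraries. Right, share of productive clonotypes with interior tryptophan by V gene (%, points, 1 library each). The tryptophan frame stands at 62.7% in DN against 44.3% and 38.8%, and DN points lie above both references for all 16 V genes.

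Groups of similar CDR3s were sought next. Among 5449 productive DN CDR3s with at least 5 reads, 1052 (19.3%) had another at 1 residue's distance that shared V gene, J gene and length. The share was 24.4% in CD8 (Fisher's exact test, adjusted p = 3.37e-08) and 18.2% in CD4 T cells (Fisher's exact test, adjusted p = 0.159). With a minimum of 10 reads the order against CD8 T cells was reversed, at 13.5% in DN and 9.29% in CD8 T cells, and DN T cells were also above CD4 T cells, which had 8.74% (Fisher's exact test, adjusted p = 2.11e-06). Among clonotypes found in a single library the share was 7.87% in DN, 21.7% in CD8 and 13.4% in CD4 T cells (Fisher's exact test, adjusted p = 6.78e-30 and 4.74e-09). The largest DN group had 22 members, against 12 in CD8 and 8 in CD4 T cells. More CDR3s were searched in DN T cells, 5449 against 3141 in CD8 and 4373 in CD4 T cells. With a minimum of 10 reads the numbers were 2755, 893 and 1740. Neighbour shares and group sizes also depend on the number searched, which was not made equal.

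The groups differed more by content. DN CDR3s with a neighbour had interior tryptophan in 45.1%, and those without in 26.9%. In CD8 T cells these shares were 22.4 and 20.1%, and in CD4 T cells 6.93 and 11.5%. In DN groups of at least 5 members, 66.1% of 333 CDR3s had it, against 15.1% of 199 in CD8 and 9.80% of 102 in CD4 T cells. TRBV13-1 made up 32.1% of DN CDR3s with a neighbour and 17.4% of those without. Linked CDR3s share their V gene, J gene and most residues by definition, so members of a group are not independent observations. These shares were not tested.

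The 3 largest DN groups were TRBV13-1/TRBJ2-7 with 14 residues (22 members, 311 reads), TRBV13-1/TRBJ2-7 with 13 residues (16 members, 302 reads) and TRBV13-2/TRBJ2-7 with 14 residues (12 members, 137 reads). Interior tryptophan was present in 21 of 22, 16 of 16 and 12 of 12 members. Since members were linked by their similarity, a residue held by most of a group follows in part from how groups were formed. For the 3 CDR3s with the most reads in each, the nucleotide sequence with the most reads is given, with the tryptophan codons of the interior in capitals, to show the different bases around that codon.
Group of 22, 29 reads: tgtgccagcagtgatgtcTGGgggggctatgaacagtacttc
Group of 22, 26 reads: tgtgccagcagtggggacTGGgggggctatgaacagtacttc
Group of 22, 17 reads: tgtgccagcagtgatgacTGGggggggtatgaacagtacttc
Group of 16, 64 reads: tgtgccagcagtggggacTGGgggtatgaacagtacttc
Group of 16, 60 reads: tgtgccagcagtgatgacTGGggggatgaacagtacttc
Group of 16, 26 reads: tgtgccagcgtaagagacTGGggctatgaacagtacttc
Group of 12, 37 reads: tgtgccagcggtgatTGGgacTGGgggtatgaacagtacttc
Group of 12, 19 reads: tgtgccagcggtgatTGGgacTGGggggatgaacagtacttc
Group of 12, 15 reads: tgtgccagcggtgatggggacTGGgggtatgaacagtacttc

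In the group of 22, 16 members were also found in CD8 and 6 in CD4 T cells by V gene, J gene and amino acids. The leading member, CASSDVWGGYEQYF, had 29 reads in DN, 11 in CD8 and 1 in CD4 T cells. In the group of 16, 12 and 5 members were found there, and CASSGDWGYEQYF had 64, 21 and 1 reads. In the group of 12, 8 and 6 were found, and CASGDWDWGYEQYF had 37, 5 and 5 reads. Of the 10 largest DN groups, 8 used TRBJ2-7, 7 used TRBV13-1, and 6 had interior tryptophan in all members. Others had little of it, with 1 of 11 members in a TRBV13-1/TRBJ2-7 group of 11 residues and 3 of 11 in another TRBV13-1/TRBJ2-7 group of 14 residues.

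Convergence, where different nucleotide sequences encode the same CDR3 with the same V and J genes, was not raised in DN T cells. Of 36009 distinct productive CDR3s, 1834 (5.09%) were made by at least 2 nucleotide sequences, against 6.81% in CD8 (Fisher's exact test, adjusted p = 1.13e-28) and 5.28% in CD4 T cells (Fisher's exact test, adjusted p = 0.255). At the depth of the smallest library the share was 4.45% of 29311 CDR3s in DN. It was then lower than in CD4 T cells too (ratio 0.843, Fisher's exact test, adjusted p = 8.15e-07), which had 38801 CDR3s. CD8 T cells had 70847 in the main comparison. The share also depends on the number of distinct CDR3s, which equal depth in reads does not make equal. Convergent DN CDR3s had interior tryptophan in 38.1%, the others in 26.5%. The CDR3 with the most sequences, a 14-residue one of TRBV17 and TRBJ2-7, was made by 10 in DN (36 reads), 8 in CD8 and 3 in CD4 T cells. The 4 with the most reads follow, with capitals at the bases that differ from the leading one.
TRBV17/TRBJ2-7, 15 reads: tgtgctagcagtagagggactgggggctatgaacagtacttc
TRBV17/TRBJ2-7, 8 reads: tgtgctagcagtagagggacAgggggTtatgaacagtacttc
TRBV17/TRBJ2-7, 3 reads: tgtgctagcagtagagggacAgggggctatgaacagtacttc
TRBV17/TRBJ2-7, 2 reads: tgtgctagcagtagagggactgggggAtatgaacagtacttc

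Differences of 1 base between sequences with few reads may be copying errors, which were not told apart from separate rearrangements. Only 34 DN CDR3s had at least 2 nucleotide sequences with 10 or more reads each.

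Clonotype sizes were spread widely. Those with 1 read only were 56.5% of DN clonotypes, 68.9% in CD8 (Fisher's exact test, adjusted p = 5.2e-300) and 62.1% in CD4 T cells (Fisher's exact test, adjusted p = 7.92e-63). At equal depth the DN share was 60.4%, and among clonotypes found in a single library it was 64.9% in DN and 64.1% in CD4 T cells, the opposite order. DN clonotypes with 2 to 9 reads numbered 15374 (25.9% of DN reads), with 10 to 99 reads 2672 (36.2%), with 100 to under 1000 reads 209 (21.8%) and with at least 1000 reads 6 (3.93%). In CD8 T cells clonotypes with 10 to 99 reads held 11.9% of reads and in CD4 T cells 29.3%. The Gini coefficient of clonotype sizes, which is 0 for equal sizes, was 0.7002 in DN, 0.397 in CD8 and 0.582 in CD4 T cells. It was not computed at equal depth, and the libraries differed in reads per clonotype. The inverse Simpson index of clonotype shares of reads lay closer together, at 1534.8 in DN, 1729.6 in CD8 and 2082.5 in CD4 T cells. The largest clonotype of any library was in CD8 T cells, with 3260 reads (2.16% of CD8 reads).

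Gene use was also set out by DN size class, with no test. TRBV13-1 held 17.9% of DN clonotypes with 1 read, 18.6% with 2 to 9, 20.7% with 10 to 99 and 19.1% with 100 to under 1000 reads. TRBJ2 rose from 70.1% to 71.2, 73.4 and 77.0% over the same classes and was used by all 6 largest. Interior tryptophan was present in 26.8, 28.5, 31.9 and 29.5%, and in 2 of the 6 largest. TRBV20 fell from 1.94% with 1 read to 0.478% with 100 to under 1000 reads and TRBV4 from 4.69 to 1.91%. That class had 209 clonotypes, so these shares rest on few of them. TRBV4 then held 16.7% of the 6 largest clonotypes. The mean CDR3 length stayed between 14.2 and 14.3 residues in the classes under 1000 reads.

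The share of DN clonotypes also found in CD8 T cells was 7.99% for 1 read, 22.6% for 2 to 9 reads, 81.9% for 10 to 99 reads and 100% above. In CD4 T cells it was 4.06, 9.09, 44.5 and 95.2% for the same classes under 1000 reads, and 100% for the 6 largest. Depth and sharing between subsets cannot be told apart in this rise with size.

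**Figure D5:**
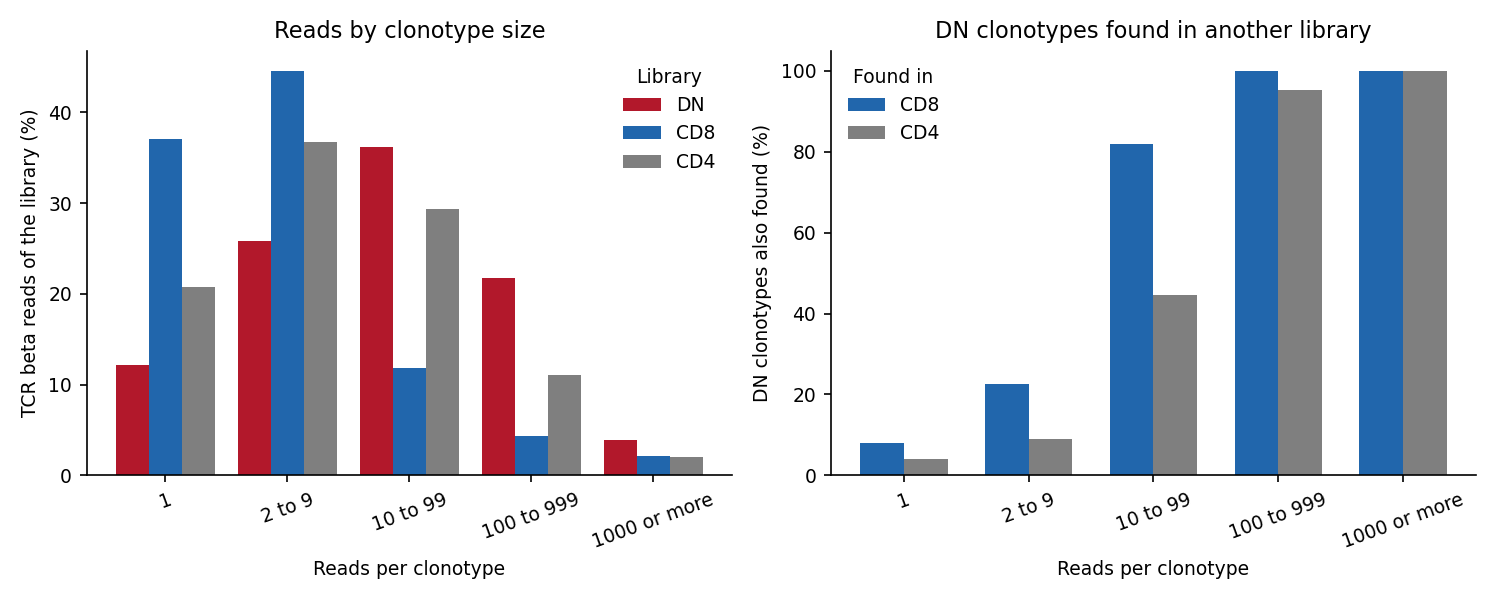
Clonotypes by number of reads (x axes), as share of TCR beta reads in each library (left, %) and as share of DN clonotypes also found in the CD8 or CD4 library (right, %). DN reads lie mainly in clonotypes of 10 to 99 reads (36.2%), of which 81.9% were found in CD8 and 44.5% in CD4 T cells.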

How the data were processed

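Per the labels, mRNA of 1000000 sorted cells per subset was made into TCR libraries with the Takara SMARTer Mouse TCRα/β kit. The authors used MiXCR for alignment and clonotype assembly (version, settings and filters not given in the sources used here). The deposited tables give each clonotype a count of reads, not normalized, and a fraction of all reads, which equalled the count divided by the table's total. Libraries were neither pooled nor replicated.

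TCR beta clonotypes were selected by gene names without filter on reads. The members and lists were chosen with earlier results of these data known. Shares of clonotypes were compared by two-sided Fisher's exact tests, with Benjamini-Hochberg adjustment over 26 comparisons, 4 of them added after the values were seen. P-values were set no lower than 1e-300. V genes were named if they held at least 1% of DN reads or clonotypes, and J and D genes throughout. V-J pairs were named for the most reads or clonotypes (5 each) and for the highest and lowest observed over expected (3 each). Clonotypes were named for the 10 with most reads and the leaders of the 3 largest groups, and residues for a 1.2-fold difference or being among the 5 most frequent. Genes outside these rules were chosen after their values were seen. V and J ends were taken as the longest run of bases shared by at least 60% of clonotypes at each step. Names and gene order came from the RefSeq list of GRCm38.p6, which matched 44 of 44 TRB genes. Alternatives covered a minimum of reads, equal depth, merged errors, private clonotypes, reads, reading frame and the residues left out. On simulated data, 8 of 8 quantities were recovered within 12%. Python 3.11.15, NumPy 2.4.6, SciPy 1.17.1, pandas 2.3.3, statsmodels 0.14.6 and matplotlib 3.10.9 were used.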

Additional observations from a re-analysis of the deposited data

Results flagged for a closer look

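The DN table held TCR alpha clonotypes that no comparison used. There were 78 of them with 85 reads, 0.0437% of the table (95% Wilson interval 0.0354 to 0.0541%), above the 0.00154% that a count of 0 allows. Of these, 73 had a single read and the largest had 4 reads. The CD8 and CD4 tables held 100 and 82 TCR alpha clonotypes, so their presence was not particular to the DN table.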

How the results depend on the processing

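Over 26 comparisons, 166 alternative ratios of DN to reference shares were computed, of which 130 were planned and 36 chosen after seeing the data. In 152 the ratio kept its direction and its side of the threshold. Alternatives by reads were tested with each read as a unit, although reads copied by PCR are not independent. Only the direction of those ratios should therefore be read, not their side of the threshold. Interior tryptophan (1.48 to 1.96 for CD8 as the reference, 1.67 to 2.55 for CD4), the tryptophan frame (1.31 to 1.52 and 1.42 to 1.82), the TRBV13 family (1.11 to 1.23 and 1.196 to 1.39), and short, long, charged and aromatic CDR3s kept both under all alternatives run for them. Reversed against CD4 T cells were the single-read share among private clonotypes (1.01), the nonproductive share by reads (0.909) and by reads without the 10 largest clonotypes (0.970), and the neighbour share among private clonotypes (0.587) and with a minimum of 2 reads (0.964). Reversed against CD8 T cells were the neighbour share with a minimum of 10 reads (1.45) and, among nonproductive clonotypes, TRBJ2 (0.954) and TRBD2 (0.982). TRBJ2 lost its call against CD8 T cells with at least 2 reads (1.00, adjusted p = 0.427 by Fisher's exact test) and against CD4 T cells among nonproductive clonotypes (1.02, adjusted p = 0.226 by Fisher's exact test). The convergent share against CD4 T cells passed the threshold with merged errors (0.916), private clonotypes (0.713) and equal depth (0.843), and the neighbour share did with a minimum of 10 reads (1.54). The causes of these changes were not tested. No paired analysis was possible because each subset had 1 library. Depth limits what was found in a second library, since 56.5% of DN clonotypes had a single read.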
